A study of Mus musculus with 4 samples.

Results

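The genes studied here encode the parts of the nuclear pore and the carriers that bring proteins through it. They were chosen by gene symbol: probe sets whose single symbol on the array starts with Nup, Kpna, Kpnb or Ipo followed by a digit, together with Pom121, Ndc1, Rae1, Aaas, Tpr, Seh1l and Ranbp2. This gave 39 genes of 18193 named on the array, on 101 probe sets, and each gene was read from the probe set whose mean log2 signal over the 4 arrays was highest. No probe set carries Tpr as its single symbol. Only the mean signal over all arrays chose the probe sets, so the levels are a description, but the gene group was picked with results of this comparison known.

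The arrays measured RNA of mouse mammary tissue from 2 mice labelled STAT5 WT and 2 labelled STAT5 KO, with 1 array per mouse. All 4 mice were sampled at 6 days, and the event from which the days are counted, the strain, the ages and the deleted allele are not given in the sources used here. The series' title names STAT5A, a transcription factor that prolactin activates in the mammary epithelium, while the genotype labels say STAT5. Stat5a gave 2307 and 2061 in WT and 1836 and 861 in KO (here and below, replicate 1 before replicate 2), a log2 difference of -0.79 that did not pass (limma adjusted p = 0.246). Stat5b signals were 1522 and 1506 in WT and 1069 and 712 in KO (-0.78, limma adjusted p = 0.102). Without KO replicate 1 both passed, with -1.33 for Stat5a (adjusted p = 0.0115) and -1.07 for Stat5b (adjusted p = 0.0227). Leaving out an array leaves its genotype with 1 array, here and below, which is then assumed to vary like the 2 arrays of the other genotype. Whether these probe sets lie in the deleted part is not known here, so they do not check the genotype. Among 20 general epithelial markers the lowest signal on any array was 229, where the filter for testing lay at a signal of 126.

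The nuclear pore is a channel through the nuclear envelope, built from many copies of the nucleoporins. An outer ring on each face, made of Y-shaped complexes, and an inner ring form the scaffold. Membrane nucleoporins anchor it, and nucleoporins rich in phenylalanine-glycine (FG) repeats fill the channel and hold passing carriers. Importin alpha proteins read the nuclear localization signal of a cargo and bind it to importin beta, which crosses the pore, while other members of the importin beta family bind cargo directly. The small GTPase Ran, loaded with GTP in the nucleus, makes the importins release their cargo. The pore is taken apart and rebuilt at each open mitosis, and a dividing cell makes new pores before it divides.

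Promoter letters are shown for 4 genes: Nup210, the gene that passed the test described below, Kpna2 and Nup62, which had the next smallest p among the tested members, and Nup107, the only member with a STAT-type motif in its window. RefSeq (GRCm38.p6) has promoter windows, running from 250 bases before a transcript start to 50 bases after it, for 32 of the 39 genes. The 250 bases before the start are printed 5′ to 3′ on the gene's strand, with letters that match a searched motif in capitals. The Nup210 window is chr6:91116827-91117076 on the minus strand, that of Kpna2 is chr11:106999526-106999775 on the minus strand, that of Nup62 is chr7:44815838-44816087 on the plus strand and that of Nup107 is chr10:117792706-117792955 on the minus strand.
Nup210: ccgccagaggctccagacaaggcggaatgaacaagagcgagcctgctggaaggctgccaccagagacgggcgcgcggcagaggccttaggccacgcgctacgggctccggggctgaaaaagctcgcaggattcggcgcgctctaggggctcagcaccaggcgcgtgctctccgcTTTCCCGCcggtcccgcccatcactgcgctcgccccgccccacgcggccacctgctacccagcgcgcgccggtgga
Kpna2: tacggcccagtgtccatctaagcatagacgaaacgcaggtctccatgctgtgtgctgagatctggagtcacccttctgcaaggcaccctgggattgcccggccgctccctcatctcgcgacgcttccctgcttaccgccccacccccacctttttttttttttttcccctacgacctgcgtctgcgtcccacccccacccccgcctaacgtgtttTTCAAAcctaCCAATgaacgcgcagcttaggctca
Nup62: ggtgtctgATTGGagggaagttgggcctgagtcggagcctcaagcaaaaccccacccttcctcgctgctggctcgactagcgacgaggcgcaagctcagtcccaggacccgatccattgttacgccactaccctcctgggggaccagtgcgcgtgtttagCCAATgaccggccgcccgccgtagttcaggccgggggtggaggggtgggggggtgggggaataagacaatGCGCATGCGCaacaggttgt
Nup107: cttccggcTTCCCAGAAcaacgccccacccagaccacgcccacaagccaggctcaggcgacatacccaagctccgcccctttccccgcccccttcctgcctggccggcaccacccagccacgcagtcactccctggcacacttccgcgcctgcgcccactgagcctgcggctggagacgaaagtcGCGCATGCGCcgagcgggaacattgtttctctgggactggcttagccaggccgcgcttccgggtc
The capitals mark TTTCCCGC, an E2F motif, in Nup210. In Kpna2 they mark TTCAAA, the reverse complement of the cell cycle homology (CHR) motif TTTGAA, followed closely by a CCAAT box. They mark CCAAT boxes, one of them read as ATTGG, and the palindromic NRF1 motif in Nup62, and the NRF1 motif and TTCCCAGAA, of the STAT form TTCNNNGAA, in Nup107.

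Over the whole windows, with both strands read, the NRF1 motif was found in 3 of 32 genes (Nup62, Nup107 and Nup50, 9.38%), against 2.36% of the tested genes with a window and 1.07% of all genes with a window. The E2F letters TTTCCCGC, TTTGGCGC or TTTCGCGC were found in 2 of 32 genes (Nup210 and Ipo7, 6.25%), against 4.22% of tested and 2.12% of all genes. CCAAT was found in 15 (46.9%, against 42.5% and 41.1%), and TTTGAA or TTCGAA in 9 (28.1%, against 16.1% and 21.7%). The E-box CACGTG was found in 6 genes (18.8%, against 12.0% and 8.09%) and TTCNNNGAA in 1 (3.13%, against 7.94% and 9.55%). These are matches of letters with no test, and a TTCNNNGAA match can itself contain TTTGAA. Of the 2 genes with E2F letters, Nup210 was lower in KO and Ipo7 had a log2 difference of 0.01.

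In KO mammary tissue transcripts of 1 nucleoporin, Nup210, fell by about 1 log2 unit. As deposited, both KO arrays lay below both WT arrays for 18 of the 24 tested nucleoporins (75%, against 27.5% of all genes). These included all selected genes of the outer and inner rings, and of the 18 only Nup210 passed the test. Most importins overlapped between the genotypes. Of the 39 genes, 37 were bright enough to be tested, and 1 fell, 0 rose and 36 did not pass at a limma adjusted p of 0.05. That is 2.70% of the members against 2.57% of all 11360 tested genes called, 1.36% lower (154) and 1.21% higher in KO (138), so a single call is near the background. At an unadjusted limma p under 0.05 there were 7 members, all lower in KO, where 10.8% of all genes were lower and 10.4% higher at that level.

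The median log2 difference (KO minus WT) of the 37 members was -0.19, or 87.8% of the WT level, beside -0.01 for all tested genes. It ranged from -1.04 for Nup210 to 0.06 for Ipo8. Both KO arrays lay below both WT arrays for 21 of the 37 (56.8%), and both above for 0, where all genes gave 27.5% below, 26.2% above and so 53.7% without overlap. In the mean of the genotypes 31 members were lower in KO, against 51.5% of all genes.

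These counts depend on how the arrays are scaled. Both KO arrays lay below both WT arrays for 23 members after quantile normalization (62.2%, against 25.9% of all genes), for 16 with each array centred on its median (43.2%, against 19.4%) and for 1 with each array centred on general epithelial markers (2.70%, against 4.51%). The last scaling raised the median of all genes from -0.01 to 0.38 and that of the members to 0.20, so the direction of the members turned there. Relative to the median of all genes the members stood at -0.18 as deposited and -0.22 after quantile normalization. Centring shifts all genes of an array by the same amount, so it leaves this distance at -0.18 by construction. The 3 scalings are given in this order below, and each count of genes with both KO arrays below both WT arrays stands against these shares of all genes (27.5% as deposited, then 25.9%, 19.4% and 4.51%).

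**Figure D1:**
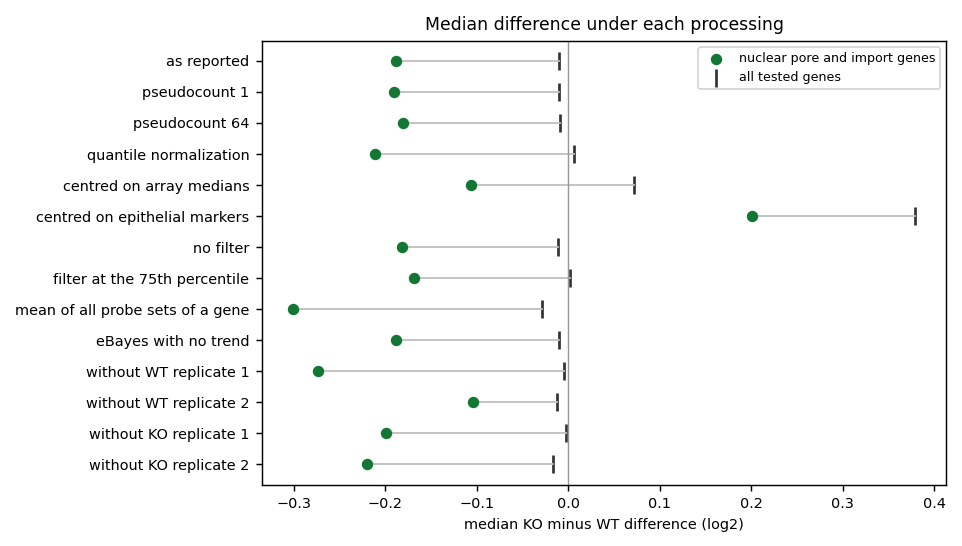
Median KO minus WT difference (log2) of the nuclear pore and import genes (green points) and of all tested genes (black bars) under the processing as reported and 13 alternatives. The points lie to the left of the bars in every row, and both move to the right of 0 when the arrays are centred on epithelial markers.

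Nup210, a membrane nucleoporin with a large domain in the lumen of the nuclear envelope, differs between tissues more than most nucleoporins. It gave signals of 805 and 752 in WT and 381 and 357 in KO. Both KO arrays lay far below both WT arrays, and the replicates of each genotype lay close together. The KO mean was 47.4% of the WT mean, from 778 ± 37.6 to 369 ± 17.3 (SD, n = 2). The log2 difference of Nup210 was -1.04, with an SE of 0.15, a 95% interval of -1.41 to -0.68 and a limma adjusted p of 0.0324. The call was lost without WT replicate 1 (-0.996, limma adjusted p = 0.112), without WT replicate 2 (-1.09, adjusted p = 0.158), with no filter (adjusted p = 0.0959) and centred on epithelial markers (-0.66, adjusted p = 0.561). Its difference was negative in all 11 alternatives in which it was tested. Its other probe set was too dim to test, with signals of 19.7 and 7.85 in WT and 0.77 and 11.4 in KO.

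The other 2 tested membrane nucleoporins help hold the pore in the envelope. Pom121, an early factor of pore assembly after mitosis, gave 1305 and 1264 in WT and 1039 and 1106 in KO (log2 difference -0.26, limma adjusted p = 0.353). Both KO arrays were below both WT arrays, and the KO mean was 83.5% of the WT mean. Ndc1 gave 549 and 742 in WT and 571 and 475 in KO (-0.29, adjusted p = 0.485), and its groups overlapped. Nup210l, a relative of Nup210, was not tested because its signals ran only from 7.06 to 14.0.

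All 7 genes that the selection matched in the Y complex, the scaffold of the outer rings, had both KO arrays below both WT arrays. None passed. The count was 7, 5 and 0 under the 3 other scalings, where all genes gave 27.5% as deposited and 25.9%, 19.4% and 4.51% under those scalings. Their median log2 difference was -0.35. Sec13 and Ahctf1, which also belong to or bind this complex, carry symbols that the selection does not match. They gave -0.29 and 0.14, and Ahctf1 was higher on both KO arrays. Nup107, which joins the stem of the Y, gave 614 and 778 in WT and 426 and 503 in KO (log2 difference -0.56 with an SE of 0.18, limma adjusted p = 0.163). Nup85, which lies in a short arm of the Y, gave 1200 and 1191 in WT and 879 and 905 in KO (-0.42, SE 0.13, adjusted p = 0.160). Nup43, a small propeller protein of the same complex, gave 271 and 315 in WT and 180 and 216 in KO (-0.53, SE 0.20, adjusted p = 0.208). Each of these 3 genes stood at 66.7% to 74.6% of its WT mean in KO, with no overlap.

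Nup160, another arm of the Y, gave 647 and 827 in WT and 535 and 635 in KO, so that KO replicate 2 nearly reached WT replicate 1. Nup133, at the end of the stem, gave 1005 and 976 in WT and 790 and 820 in KO, and Nup37 gave 808 and 856 in WT and 598 and 709 in KO. Seh1l, which the Y complex shares with a complex of amino acid signalling at the lysosome, gave 1374 and 1621 in WT and 1356 and 1333 in KO. The Seh1l gap between WT replicate 1 and KO replicate 1 was only about 1%, and its log2 difference was -0.15 with a 95% interval of -0.49 to 0.19 (limma adjusted p = 0.626). The other log2 differences were -0.35 for Nup37, -0.32 for Nup160 and -0.29 for Nup133.

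Of the inner ring genes, all 4 tested, Nup205, Nup188, Nup155 and Nup93, had both KO arrays below both WT arrays, with a median difference of -0.38, and none passed. The count was 4, 3 and 0 under the 3 other scalings, against 27.5% of all genes as deposited. Nup205, a large arch-shaped scaffold protein, gave 1246 and 1573 in WT and 1051 and 1201 in KO (-0.31, SE 0.17, limma adjusted p = 0.359). Nup188, its close relative, gave 641 and 661 in WT and 392 and 567 in KO (-0.45, SE 0.20, adjusted p = 0.283). The KO replicates of Nup188 lay further apart than its genotypes at their nearest points. Nup155, which links the ring to the membrane, gave 530 and 709 in WT and 416 and 474 in KO (-0.45, adjusted p = 0.262). Nup93, which binds the channel nucleoporins to the ring, gave 866 and 963 in WT and 710 and 763 in KO (-0.31, adjusted p = 0.313).

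Among the FG nucleoporins of the central channel the genes differed. Nup62, whose FG repeats line the middle of the channel, gave 3048 and 3070 in WT and 2035 and 2256 in KO. The WT arrays were within 1% of each other and both KO arrays lay well below, with a mean of 70.1% of WT. The log2 difference was -0.51 with an SE of 0.13 and a 95% interval of -0.81 to -0.21, and it did not pass (limma adjusted p = 0.0924). Its 3 other tested probe sets gave -0.52, -0.55 and -0.65. Nup54, its partner in the channel, gave 1570 and 1456 in WT and 1317 and 1371 in KO (-0.17, adjusted p = 0.546), and 1 of its other probe sets went the opposite way at 0.37. Nup98, which also acts in mRNA export, gave 906 and 1024 in WT and 1009 and 979 in KO (0.05, with a 95% interval of -0.30 to 0.39). The Nup98 arrays overlapped, and its other tested probe set gave -0.42.

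On the cytoplasmic face, where cargo leaves or enters, 1 of 5 tested genes had KO arrays that did not overlap WT (3, 1 and 0 below under the 3 other scalings). That gene was Aaas, the aladin gene mutated in triple A syndrome, with 819 and 883 in WT and 653 and 684 in KO (-0.34, SE 0.14, limma adjusted p = 0.261). Ranbp2, the large SUMO ligase of the cytoplasmic filaments, gave 1750 and 1949 in WT and 1753 and 1764 in KO (-0.07, 95% interval -0.39 to 0.24, adjusted p = 0.820). Both KO values of Ranbp2 were close to that of WT replicate 1. Nup88 and Nup214, which form a complex on this face, gave -0.02 (interval -0.33 to 0.29) and -0.09 (interval -0.46 to 0.29). Rae1, an mRNA export factor that binds Nup98, gave -0.18 and overlapped as well.

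In the nuclear basket both tested genes lay lower on both KO arrays (2, 1 and 0 under the 3 other scalings), and neither passed. Nup153, which holds the basket to the pore, gave 1065 and 1227 in WT and 1013 and 989 in KO (-0.19, SE 0.14, limma adjusted p = 0.534). Nup50, which helps importins let go of their cargo, gave 1011 and 1116 in WT and 876 and 817 in KO (-0.32, SE 0.14, adjusted p = 0.276). Its other tested probe sets showed a larger difference. The second gave 650 and 812 in WT and 425 and 388 in KO (-0.82, limma adjusted p = 0.0661), and the third gave -0.58.

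**Figure D2:**
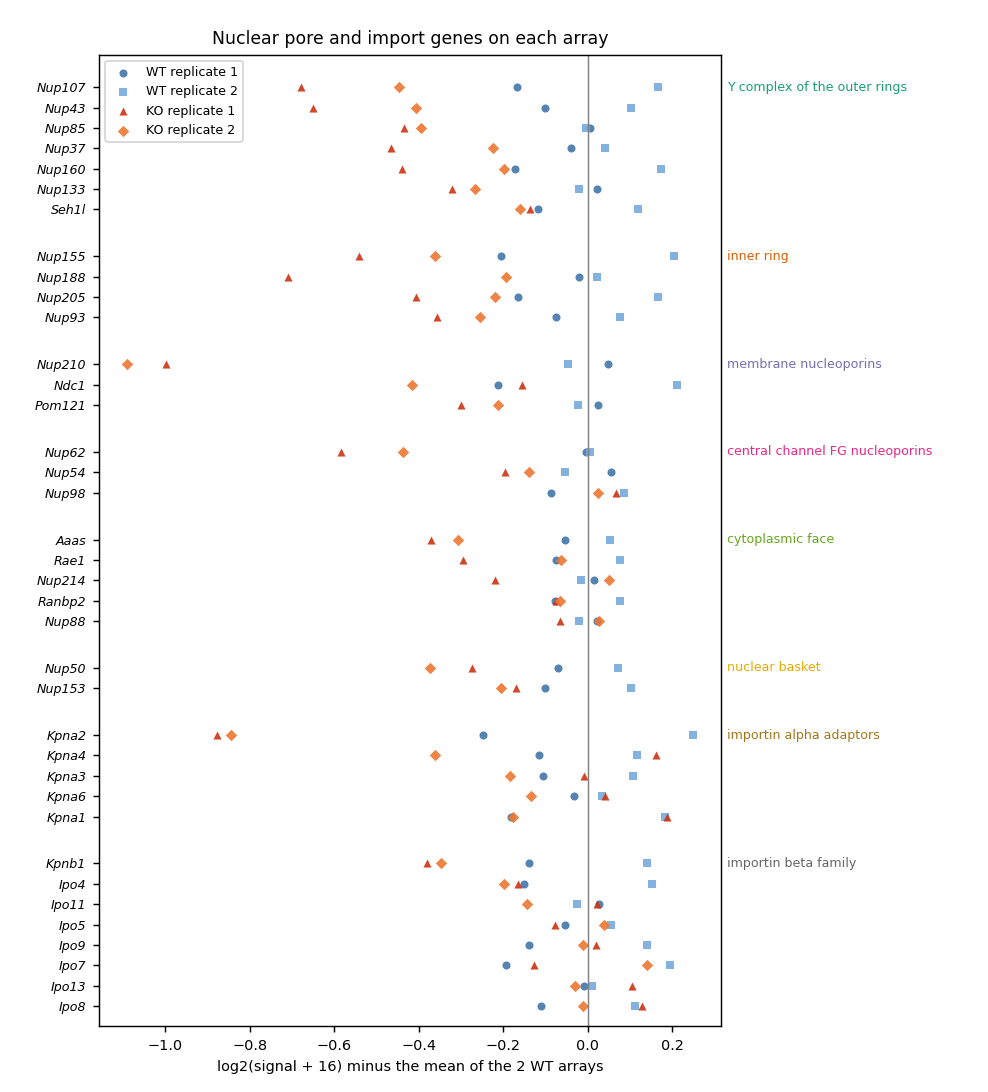
Log2(signal + 16) of each tested gene on each array, relative to the mean of the 2 WT arrays, grouped by place in the pore or import role (blue circles and squares, WT replicates 1 and 2; red triangles and orange diamonds, KO replicates 1 and 2). The KO points of all 7 Y complex and 4 inner ring genes shown lie to the left of their WT points. Those of Nup210 and Kpna2 lie furthest left.

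None of the 5 tested importin alpha genes passed. Kpna2, an adaptor that is abundant in dividing cells, gave 2066 and 2923 in WT and 1329 and 1362 in KO. Both KO arrays were far below both WT arrays, and the WT arrays also stood apart from each other by 0.50 on the log2 scale. The log2 difference of Kpna2 was -0.86, with an SE of 0.18, a 95% interval of -1.30 to -0.42 and a limma adjusted p of 0.0662, so it did not pass. It was negative in all 13 alternatives, from -1.11 to -0.47, with adjusted p from 0.0609 to 0.657. Kpna2 has no second probe set among those named by 1 symbol.

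The other 4 tested importin alpha genes overlapped between genotypes. Kpna3 and Kpna4, a pair of close relatives, gave differences of -0.10 and -0.10, with 95% intervals of -0.46 to 0.27 and -0.59 to 0.38. Kpna1 and Kpna6, which are relatives of each other, gave 0.01 (interval -0.46 to 0.47) and -0.05 (interval -0.39 to 0.29). Kpna1 shows how far replicates could differ: its signals were 749 and 971 in WT and 974 and 753 in KO. Kpna7, known from the egg and early embryo, was not tested, with signals from 18.5 to 38.8. Of the 5 tested importin alpha genes, 1 had both KO arrays below both WT arrays (1, 1 and 0 under the 3 other scalings), near the 27.5% of all genes.

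In the importin beta family 2 of 8 genes had both KO arrays below both WT arrays, Kpnb1 and Ipo4 (2, 1 and 0 under the 3 other scalings), which is near the 27.5% of all genes. None of the 8 passed, and their median difference was -0.01, as for all tested genes. Kpnb1, importin beta itself and the partner of every importin alpha, gave 2090 and 2542 in WT and 1766 and 1808 in KO (-0.36, SE 0.15, limma adjusted p = 0.237). The KO arrays of Kpnb1 lay closer to each other than the WT arrays did, and its 3 other probe sets gave -0.16, -0.26 and -0.42. Ipo4, a carrier of histones, gave 2119 and 2621 in WT and 2100 and 2051 in KO (-0.18, adjusted p = 0.556).

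Ipo7, which carries ribosomal proteins and other cargo, gave 2820 and 3690 in WT and 2954 and 3554 in KO (0.01, 95% interval -0.41 to 0.42, limma adjusted p = 0.989). Each genotype had a low and a high array, and the means of the genotypes were within 1% of each other. Ipo9 gave 0.00 (interval -0.34 to 0.35), Ipo13 0.04 (interval -0.29 to 0.37), Ipo8 0.06 (interval -0.29 to 0.41) and Ipo11 -0.06 (interval -0.42 to 0.29). A change of 2-fold in either direction lies outside each of these intervals. Ipo5, another carrier of ribosomal proteins and histones, gave -0.02 with its brightest probe set (2916 and 3143 in WT, 2870 and 3109 in KO). Its second probe set gave 2005 and 2578 in WT and 1518 and 1590 in KO (-0.54, limma adjusted p = 0.130), so the probe sets of Ipo5 disagreed.

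**Figure D3:**
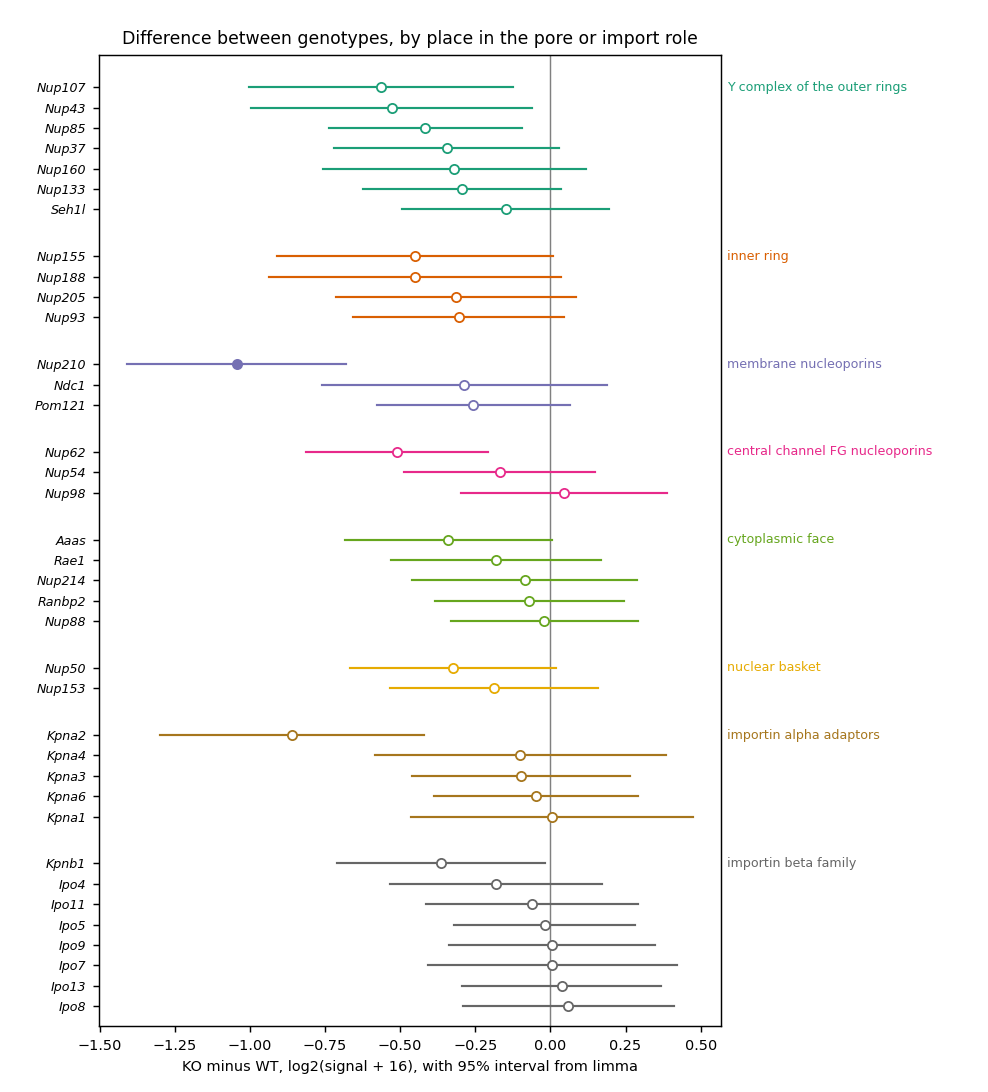
KO minus WT difference of each tested gene on the log2(signal + 16) scale with its 95% limma interval; colours mark the role and the filled point is the gene that passed at an adjusted p of 0.05. Nup210 is the filled point, at -1.04, and most importins lie at or near 0.

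Set side by side, the 24 tested nucleoporins had a median difference of -0.31 and the 13 tested importins one of -0.05. Both KO arrays lay below both WT arrays for 18 of the 24 nucleoporins and 3 of the 13 importins (23.1%), against the 27.5% of all genes. For the importins this share is near that background. The same counts were 20 and 3 after quantile normalization, 14 and 2 with arrays centred on their medians, and 1 and 0 centred on epithelial markers. The difference between these groups of genes was not tested.

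**Figure D4:**
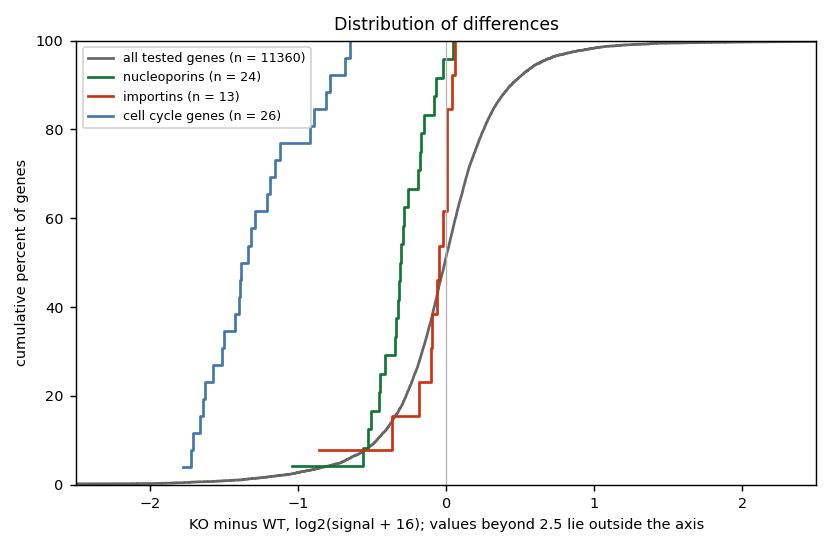
Cumulative percent of genes against the KO minus WT difference (log2) for all tested genes (grey), the 24 nucleoporins (green), the 13 importins (red) and the 26 cell cycle genes (blue). The nucleoporin curve runs to the left of the grey one around its median of -0.31, the importin curve crosses the grey one near 0, and the cell cycle genes lie at or below -0.65.

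A further 38 probe sets of 22 members were bright enough to test but were not the brightest of their gene. Of these 34 were lower in the mean of KO and 30 had the same sign as the probe set used, and 0 passed (limma). The gap between such a probe set and the one used had a median of 0.11 and reached 0.54 on the log2 scale, for Nup54. With the mean of all probe sets in place of the brightest, the median difference of the 35 members still tested was -0.30.

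The machinery around the pore gave few calls. In the Ran cycle 0 of 6 tested genes passed in either direction, with a median of -0.46. Rcc1, the exchange factor that loads Ran with GTP, gave 617 and 525 in WT and 274 and 470 in KO (-0.64, limma adjusted p = 0.244), and passed without KO replicate 2 (-1.01, adjusted p = 0.0397). Rangap1, which makes Ran hydrolyse its GTP, gave 1302 and 1344 in WT and 845 and 883 in KO (-0.61, adjusted p = 0.0717). For 5 of these 6 genes both KO arrays lay below both WT arrays (5, 4 and 1 under the 3 other scalings), against 27.5% of all genes as deposited. Ranbp3 went the other way as deposited, with 990 and 922 in WT and 1218 and 993 in KO (0.20, limma adjusted p = 0.547).

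Of 10 exportins and transportins 0 passed, with a median of -0.13. Xpo4, an exportin, gave -0.53 (limma adjusted p = 0.263), and Cse1l, which returns importin alpha to the cytoplasm, gave 2381 and 2897 in WT and 1762 and 1904 in KO (-0.52, adjusted p = 0.123). Of 15 mRNA export factors 0 passed, with a median of -0.15. Alyref, an export adaptor, gave -0.57 (adjusted p = 0.136) and passed without KO replicate 2 (-0.78, adjusted p = 0.0478), and Thoc2, a scaffold of the same path, gave -0.57 (adjusted p = 0.155). Of 9 other pore-associated genes, listed under symbols that the selection does not match, 0 passed, with a median of -0.13. Gle1 is counted both here and among the mRNA export factors. Both KO arrays lay below both WT arrays for 4 of the 9 and above for 2, against 27.5% and 26.2% of all genes. Under the 3 other scalings 4, 4 and 0 lay below. In this list Nupl1, an FG partner of Nup62 and Nup54, gave 1181 and 1262 in WT and 791 and 894 in KO (-0.53, adjusted p = 0.110). Mad1l1, a spindle checkpoint protein held at the pore, gave -0.57 (adjusted p = 0.190), and Sec13 gave -0.29 (adjusted p = 0.283). Ahctf1 was higher on both KO arrays, with 820 and 923 in WT and 980 and 937 in KO (0.14, adjusted p = 0.660).

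The nuclear lamina, the network that lies beneath the pores, gave 1 call among 15 genes. Lmnb1, which encodes lamin B1, changed by -1.45 (limma adjusted p = 0.0203), from 1431 and 1818 in WT to 571 and 591 in KO. It lost the call without WT replicate 2 (-1.28, adjusted p = 0.0921), with no filter (adjusted p = 0.0703) and centred on epithelial markers (-1.06, adjusted p = 0.222). Lmna, the gene of lamins A and C, gave 2654 and 3571 in WT and 2289 and 4167 in KO (0.00), and its arrays overlapped widely. The list's median was 0.00, with 5 genes below WT on both KO arrays and 5 above. These counts are near the shares of all genes, 27.5% below and 26.2% above. Lmna was chosen after its values were seen, as the partner of Lmnb1.

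Cell cycle genes were lower on the same arrays. Of 26 tested, 13 fell and 0 rose, all 26 had both KO arrays below both WT arrays under every scaling, and the median was -1.36. Mcm6 and Mcm5, subunits of the replication helicase, changed by -1.71 and -1.64 (limma adjusted p = 0.0184 and 0.0236), and Top2a, which untangles replicated DNA, by -1.63 (adjusted p = 0.0308). Their calls were lost without WT replicate 2, centred on epithelial markers and with no filter, and that of Top2a also with the mean of its probe sets (-0.72, adjusted p = 0.101). The number that fell was 0 without WT replicate 2, 6 without WT replicate 1, 8 without KO replicate 1 and 24 without KO replicate 2. Relative to the WT mean, the median of this list was -1.56 on KO replicate 1 and -1.18 on KO replicate 2.

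The WT arrays differed in both lists. Cell cycle genes had a median of 0.25 above the WT mean on WT replicate 2 and 0.25 below it on WT replicate 1, and 29 of the 37 members were higher on WT replicate 2, by a median of 0.15, where all tested genes had a median of 0.00. The part of the cell cycle difference in that of the nuclear pore and import genes was not tested. Without WT replicate 2 the members' median was -0.10, and without WT replicate 1 it was -0.27.

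Markers of cell types also moved between the arrays. The summed signal of 20 general epithelial markers was 52586 and 54797 on the WT arrays, 36066 on KO replicate 1 and 56428 on KO replicate 2. Of these markers 2 fell and 1 rose. Both KO arrays lay below both WT arrays for 11 and above for 3, against 27.5% and 26.2% of all genes. Their median difference was -0.43. Relative to the WT mean, KO replicate 1 had a median of -0.69 and KO replicate 2 one of -0.16, so the sum and the median differ in direction on KO replicate 2. The members' median was -0.22 on KO replicate 1 and -0.20 on KO replicate 2. In the same order it was -0.34 and -0.22 for the nucleoporins, and 0.02 and -0.15 for the importins. The summed signal of 10 basal and myoepithelial markers was 26369 and 30536 in WT and 17792 and 26922 in KO, and 1 of 10 tested fell. All 10 were lower in the mean of KO, with a median difference of -0.43. For 5 of them both KO arrays lay below both WT arrays, against 27.5% of all genes. Relative to the WT mean, their median was -0.97 on KO replicate 1 and -0.06 on KO replicate 2.

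The summed signal of 13 skeletal muscle markers was 1686 and 637 in WT and 10863 and 6517 in KO, and 5 of 11 tested rose, with a median of 2.51. That of 8 macrophage markers was 33891 and 30778 in WT and 38599 and 38495 in KO. None of these 8 passed, their median difference was 0.53, and 5 had both KO arrays above both WT arrays, against 26.2% of all genes. Adipocyte, fibroblast and endothelial markers gave medians of 0.07, 0.07 and 0.03 with 0 passing among 7 tested in each list. The B cell markers on the array were too dim to test, as were all but 1 of the T cell markers on it. In bulk tissue fewer cells of a type and less RNA per cell cannot be told apart, and the part of these lists in the difference of the pore genes was not tested.

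**Figure D5:**
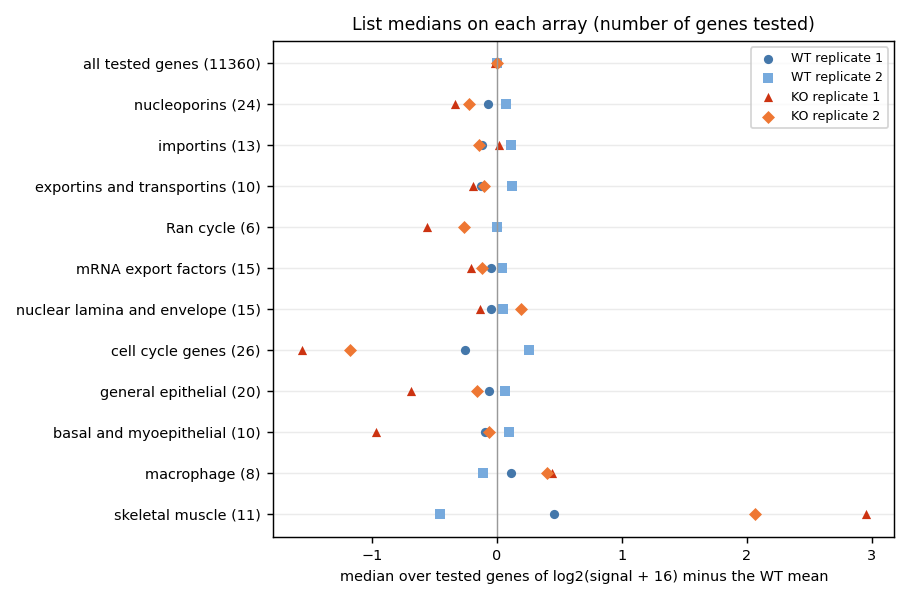
Median over the tested genes of each list of log2(signal + 16) minus the WT mean, on each array (blue circles and squares, WT replicates 1 and 2; red triangles and orange diamonds, KO replicates 1 and 2), with the number of genes tested in brackets. Nucleoporins lie at -0.34 and -0.22 on the KO arrays and cell cycle genes at -1.56 and -1.18, while general epithelial markers lie at -0.69 on KO replicate 1 and -0.16 on KO replicate 2.

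Across the 13 alternatives, 8 of the 37 members had a negative difference wherever they were tested: Nup210, Kpna2, Nup62, Nup85, Nup107, Nup43, Nup155 and Nup188. Centred on epithelial markers, only these 8 members were lower in KO, against 1487 of all 11360 tested genes. That setting alone therefore fixes the count of 8. With centring on epithelial markers left aside, 23 members, including these 8, were negative in every setting. For neither count across settings is a share of all genes given here. The alternatives re-use the same arrays, so agreement among them is not independent support. No member passed the threshold as higher in KO in any alternative, and Nup210 was the only member to pass as lower in any of them.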

How the data were processed

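RNA was extracted with TRIzol and biotin-labelled for Affymetrix arrays, per the labels. Each deposited value is the linear intensity of a probe set, computed by the authors with MAS5 per the submitters' processing notes (version and settings not given in the sources used here). Trimmed of 2% of probe sets at either end, the mean was 500.0 on each array, and array medians ran from 121 to 131. Of 45101 probe sets, 64 were controls, 34945 had 1 gene symbol, 932 several and 9160 are unnamed here. Symbols come from the platform annotation, and an update through Entrez identifiers changed 0.

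Signals were transformed as log2(signal + 16), which understates changes of dim genes. The 22519 probe sets with a mean at or above the median of 7.15 (a signal of 126) were fitted with limma 3.58.1 in R 4.3.3 (lmFit, eBayes with a trend), with Benjamini-Hochberg adjustment over all of them and a threshold of 0.05. A gene was read from its brightest probe set. The fit was tested on simulated data with the same spread for every probe set. Of 200 probe sets changed by 2 log2 units, 176 were recovered, with 8 false calls. Smaller changes, such as those of the members, were not simulated.

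Each probe set has 2 residual degrees of freedom. The p-values do not rest on the spread between these mice alone. limma pulls the variance of each probe set toward a trend fitted over all tested probe sets. The number of arrays limits precision. An exact permutation test cannot give p below 0.333 here. Members and gene lists were chosen with earlier results of these data known. Full values go to members past the threshold and to the brightest member of each role. From each list up to 3 genes past the threshold are named, or the 2 with the largest difference. Other genes given with values were chosen after these were seen. Detection calls were not used here.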

Additional observations from a re-analysis of the deposited data

How the results depend on the processing

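With an array left out, the count of all genes that passed ranged from 44 to 599 (292 as reported), that of members from 0 to 1, and the members' median from -0.27 to -0.10. All genes that passed numbered 27 with no filter, 127 with a filter at the 75th percentile and 137 with no trend. The count of members that passed was 0 with no filter, 0 with the filter at the 75th percentile, 0 with probe sets averaged per gene and 0 centred on epithelial markers. Nup210 was too dim to be tested with the filter at the 75th percentile and with probe sets averaged. The members' median was -0.11 with arrays centred on their medians, -0.30 with probe sets averaged and, reversed, 0.20 centred on epithelial markers, which moved all genes to 0.38. The other alternatives (a pseudocount of 1 or 64 and quantile normalization) left the members' count at 1 and the median between -0.21 and -0.18. The share of higher among all calls moved with the scaling: 138 of 292 as deposited, 192 of 311 centred on array medians and 199 of 255 centred on epithelial markers. No paired analysis was possible because the replicate numbers follow the order of deposit and pair no mice. Causes of these shifts were not tested.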
